A study of Mus musculus with 2 samples.

Results

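The genes described here are those of the hepatic fasting response: the transcriptional coactivator gene Ppargc1a (PGC-1α), the gluconeogenic enzyme genes Pck1, G6pc and Fbp1, the amino acid-degrading enzyme gene Tat, the pyruvate dehydrogenase kinase gene Pdk4, and the genes of the secreted proteins Igfbp1, Fgf21 and Angptl4. They were chosen by name, as all probes that carry these 9 gene names among the 27962 gene names of the arrays, and 11 probes were found. Of the 9 genes, 8 were reliably above background throughout at least 1 diet and entered the comparison of 16732 genes, and Fgf21 did not.

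The arrays profiled livers of male apoE-KO mice, a C57BL/6 line without functional apolipoprotein E that is hypercholesterolemic even on normal chow. For 1 week, starting at an age of 10 weeks, they received normal chow or that chow with 1.25% Chol added (the high-Chol diet). Each diet was hybridized to 3 one-colour arrays from independent experiments, and all mice of both diets carried the apoE deletion, so no wild-type liver is part of the comparison. Whether the mice were fed or fasted before killing, and the time of day, are not given in the sources used here, nor is the number of mice behind each array.

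During fasting, falling insulin and rising glucagon and glucocorticoid turn the liver from storing to releasing glucose. Glucagon acts through cyclic AMP and the factor CREB, low insulin releases the forkhead factor FOXO1, and both raise PGC-1α and the enzymes of gluconeogenesis, while fatty acids activate PPARα, which raises ketogenesis, Pdk4, Fgf21 and Angptl4. Many of these transcripts are short-lived and follow the last meal and the time of day.

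Some of the letters known to read these signals lie close to start sites. The 250 bases before the start of 4 of the genes are given below, from RefSeq on GRCm38.p6, to show the insulin response letters that G6pc and Igfbp1 share, the cyclic AMP response core of Pck1, and Pdk4, which held none of the letters searched. Capitals mark CAAAACA or its reverse complement TGTTTTG (the insulin response letters read by forkhead factors), TGACG or CGTCA (the core of the cyclic AMP response element), AGGTCA or TGACCT (the hexamer of nuclear receptors) and TATAAA. The positions are chr11:101367466-101367715 on the plus strand for G6pc, chr11:7197537-7197786 on the plus strand for Igfbp1, chr2:173152823-173153072 on the plus strand for Pck1 and chr6:5496279-5496528 on the minus strand for Pdk4.
G6pc: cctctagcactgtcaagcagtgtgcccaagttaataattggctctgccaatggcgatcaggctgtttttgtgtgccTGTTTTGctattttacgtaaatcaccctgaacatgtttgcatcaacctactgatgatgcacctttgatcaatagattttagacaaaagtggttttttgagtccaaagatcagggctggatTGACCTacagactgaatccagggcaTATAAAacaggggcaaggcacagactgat
Igfbp1: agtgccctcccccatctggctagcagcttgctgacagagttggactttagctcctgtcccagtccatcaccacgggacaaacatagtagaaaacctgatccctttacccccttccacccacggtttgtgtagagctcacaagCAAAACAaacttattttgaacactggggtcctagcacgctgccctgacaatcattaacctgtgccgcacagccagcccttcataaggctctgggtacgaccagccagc
Pck1: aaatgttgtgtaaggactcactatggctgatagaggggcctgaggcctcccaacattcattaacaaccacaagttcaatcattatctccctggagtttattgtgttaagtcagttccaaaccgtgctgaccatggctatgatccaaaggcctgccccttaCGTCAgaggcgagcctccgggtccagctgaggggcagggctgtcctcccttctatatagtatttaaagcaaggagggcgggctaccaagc
Pdk4: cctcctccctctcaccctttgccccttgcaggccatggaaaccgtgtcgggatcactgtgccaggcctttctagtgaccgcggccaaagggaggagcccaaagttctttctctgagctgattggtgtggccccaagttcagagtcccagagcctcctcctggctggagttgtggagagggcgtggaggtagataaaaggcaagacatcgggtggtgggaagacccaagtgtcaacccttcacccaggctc
In G6pc the insulin response letters began 174 bases before the start, on the opposite strand, and in Igfbp1 108 bases before it. Of 32851 windows of the same length, 5.56% held them on either strand. The cyclic AMP core stood 90 bases before the start of Pck1, 49 before that of Ppargc1a and 68 before that of Fgf21, and 17.8% of all windows held it. The receptor hexamer was found in G6pc alone of the 8 genes with a promoter entry (54 bases before the start), against 14.0% of all windows, and TATAAA, or its reverse complement TTTATA, in G6pc and Fgf21, against 12.4%. The full element TGACGTCA (1.55% of windows) and the forkhead letters TGTTTAC or GTAAACA (3.17%) were in none of the 8 windows. Fbp1 and Tat, like Pdk4, held none of the letters searched.

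The 6 arrays were not alike in ways that touch these genes. All 3 normal chow arrays and high-Chol array 1 lay on slide 1, and high-Chol arrays 2 and 3 lay on slide 2, which was brighter (75th percentile of the signal 762 and 799, against 271 to 373) and was read with another software version. Between 50.5% (normal chow array 1) and 67.2% (high-Chol array 3) of the probes were well above background. With 3 arrays against 3, an exact two-sided permutation test cannot go below p = 0.1. Adjusted p-values are therefore from limma fitted across all genes, with a threshold of 0.05. Values are log2 signal relative to the 75th percentile of the array, so that 0 is a probe at that percentile and each unit is 2-fold. Levels of different genes are not compared, since probes differ in brightness. In whole liver, fewer hepatocytes and less of a transcript per hepatocyte cannot be told apart. Apoe, whose deletion all mice share, still gave signal on its probe (3.31, 1.66 and 3.81 on normal chow, 3.20, 3.18 and 3.56 under the high-Chol diet, adjusted p = 0.672), and whether that probe lies within the deleted part was not determined, so it checks nothing about the labels.

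Among the 8 genes tested, G6pc and Pdk4 were higher and Fbp1, Pck1 and Angptl4 were lower on all high-Chol arrays than on any normal chow array, while Ppargc1a, Tat and Igfbp1 overlapped between the diets. None of the 8 passed the adjusted threshold in limma. At an unadjusted p under 0.05 there were 3, namely G6pc, Fbp1 and Pdk4. Over all genes, 2.92% passed the adjusted threshold (488 of 16732, 450 higher and 38 lower, or 332 higher and 73 lower with median scaling) and 21.2% the unadjusted one. Diets without overlap were found in 2 of 8 higher, against 11.8% of all genes with a value on every array, and in 3 of 8 lower, against 14.0%. Changes above 1.5-fold were seen in 2 of 8 upward (G6pc and Pdk4), against 15.4% of all genes, and in 1 of 8 downward (Angptl4), against 5.84%. The mean was lower on the high-Chol diet in 5 of 8, against 52.2%, and the median difference of the 8 genes was -0.26 on the log2 scale, against -0.02 over all genes. That median of the members was -0.07 without normal chow array 2, -0.12 without high-Chol array 3, -0.46 without normal chow array 1, -0.02 after normexp background correction, -0.11 with slide as a block, -0.12 after quantile normalization and -0.50 with median scaling.

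**Figure D1:**
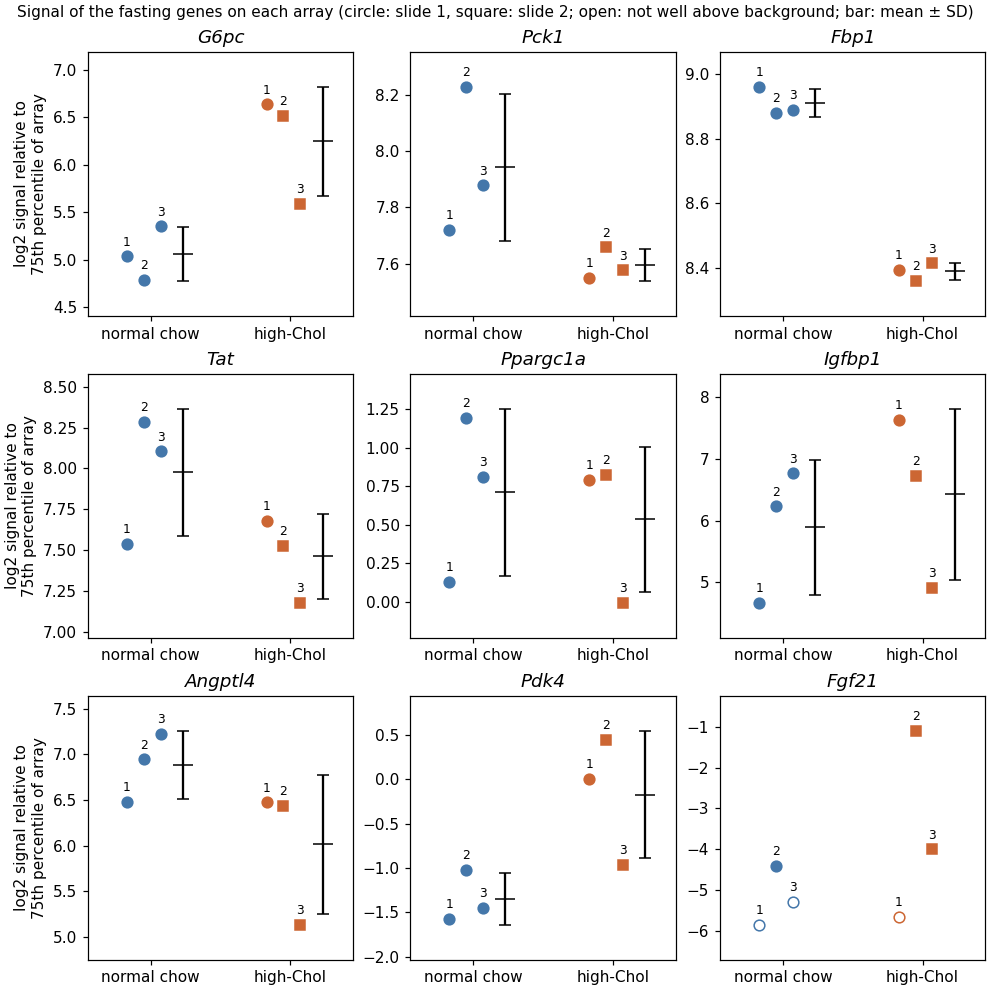
Log2 signal relative to the 75th percentile of the array, on the vertical axis, for each of the 9 genes on the 3 normal chow (blue) and 3 high-Chol (orange) arrays, numbered 1 to 3, with circles for slide 1, squares for slide 2, open symbols for spots not well above background, and bars for the mean and SD of each diet. Fbp1 separated the diets with the widest gap, G6pc and Pdk4 were higher on the high-Chol diet, and high-Chol array 3 was the lowest high-Chol array in 6 of the 8 panels that carry bars. The vertical scale differs between panels, and for Fgf21 the brighter probe is drawn without bars.

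PGC-1α, the coactivator that joins CREB, FOXO1 and PPARα to the gluconeogenic and fatty acid oxidation genes, is encoded by Ppargc1a. Its signal was 0.13, 1.20 and 0.81 on normal chow arrays 1, 2 and 3, and 0.79, 0.82 and -0.01 on high-Chol arrays 1, 2 and 3. The high-Chol values lay within or just below the normal chow range, and the lowest normal chow array (1) was below 2 of the 3 high-Chol arrays. The difference was -0.18 with an SE of 0.34 (adjusted p = 0.778, n = 3 per diet), with a 95% interval from -0.97 to 0.62. A second Ppargc1a probe, annotated to another transcript record, gave -1.09, 0.10 and -0.28 on normal chow versus -0.55, -0.22 and -0.65 under the high-Chol diet, so it differed by -0.05. The direction of the first probe depended on single arrays, since the difference was 0.10 without high-Chol array 3, 0.07 without normal chow array 2, and 0.08 with slide as a block. Under 16 of 19 alternatives, the second probe among them, the difference stayed below 0, down to -0.47 without normal chow array 1. The probes lie at chr5:50830839-50830898 and chr5:50828808-50828867 (mm7, minus strand).

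Gluconeogenesis runs from oxaloacetate through phosphoenolpyruvate carboxykinase (Pck1) and fructose-1,6-bisphosphatase (Fbp1) to glucose-6-phosphatase (G6pc), which releases free glucose. Fbp1 and G6pc stood apart most clearly, in opposite directions. G6pc (chr11:101486672-101486731, mm7) read 5.04, 4.79 and 5.35 on normal chow versus 6.64, 6.52 and 5.59 under the high-Chol diet. All high-Chol arrays were above all normal chow arrays, but array 3 by only 0.24, while arrays 1 and 2 were at least 1 unit above. The mean difference of 1.19 (SE 0.31), or 2.28-fold, missed the adjusted threshold (adjusted p = 0.104), and its 95% interval ran from 0.46 to 1.91. Without high-Chol array 3 the difference was 1.52 and passed the threshold (adjusted p = 0.0479, with 0.0479 to 0.9997 over all alternatives, the highest after normexp background correction). Within slide 1, high-Chol array 1 was 1.58 above the normal chow mean.

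Fbp1 had the smallest SD of the 8 in both diets. Its signal was 8.96, 8.88 and 8.89 on normal chow versus 8.39, 8.36 and 8.41 under the high-Chol diet. The gap between the diets (0.47) was wider than the range within either. With an SD of 0.04 with normal chow and 0.03 with the high-Chol diet, Fbp1 was at the 3.61 and 1.02 percentiles of SD among all genes. The difference of -0.52 (SE 0.13), 1.43-fold lower, had an adjusted p of 0.103 in limma, whose spread estimate borrows from all genes. It was the same on slide 1 alone and for the slide 2 arrays, but -0.24 after normexp background correction and -0.32 after quantile normalization. Fbp1 was called with a trended and robust variance prior (adjusted p = 0.0286) and without high-Chol array 1 (adjusted p = 0.0491), with 0.0286 to 0.9997 over all alternatives. The array annotation places its probe on an unplaced part of chromosome 13 (bases 822321 to 822380, mm7).

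Pck1 (chr2:172903552-172903615, mm7), the classical insulin-repressed and glucagon-induced enzyme, was at 7.72, 8.23 and 7.88 on normal chow versus 7.55, 7.66 and 7.58 under the high-Chol diet. The diets did not overlap, though the gap was 0.06. The difference was -0.35 with an SE of 0.17 (adjusted p = 0.294), and it was -0.11 after quantile normalization and 0.04, with the sign turned, after normexp background correction. The high-Chol arrays were close to one another (SD 0.06, the 4.44 percentile of all genes) while those on normal chow were not (SD 0.26). Thus, of the 3 enzymes that mark gluconeogenesis, the last in the pathway was higher and the other two lower on the high-Chol diet by the means, with no call for any of them.

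Tyrosine aminotransferase (Tat) is the first enzyme of hepatic tyrosine breakdown and is induced by glucocorticoid and glucagon. Tat (chr8:108599439-108599498, mm7) gave 7.54, 8.28 and 8.10 on normal chow versus 7.68, 7.52 and 7.18 under the high-Chol diet. Normal chow array 1 was within the high-Chol range, so the diets overlapped. The difference was -0.52 with an SE of 0.24 (adjusted p = 0.266), and it was -0.18 after normexp background correction, -0.29 with slide as a block and -0.28 after quantile normalization. Hpd and Fah, of later steps of tyrosine breakdown, differed by -0.36 (adjusted p = 0.328) and -0.32 (adjusted p = 0.303). After normexp background correction these differences were 0.03 and -0.0038.

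Pyruvate dehydrogenase kinase 4 (Pdk4) switches off pyruvate dehydrogenase, so that pyruvate is kept for gluconeogenesis while fatty acids are burned. Pdk4 (chr6:5436327-5436386, mm7, minus strand) read -1.58, -1.02 and -1.45 on normal chow versus 0.00, 0.44 and -0.96 under the high-Chol diet. High-Chol arrays 1 and 2 were at least 1 unit above every normal chow array, and array 3 was 0.06 above the highest. The difference was 1.18 (SE 0.36), or 2.26-fold, with an adjusted p of 0.152 and a 95% interval from 0.32 to 2.03. It was 1.57 without high-Chol array 3 and 0.37 after normexp background correction. Of the related kinases, Pdk1 differed by -0.57 (adjusted p = 0.219) and Pdk2 by -0.72 (adjusted p = 0.173). Pdk3 passed the filter only through the high-Chol diet, being well above background on all 3 of its arrays but on 2 of 3 normal chow arrays, and its difference of 1.27 (adjusted p = 0.0187) is given as a reading with no fold. Normexp background correction turned Pdk3 to -0.49, and its adjusted p was 0.0644 to 0.0923 when any array other than high-Chol array 1 was left out, 0.203 with slide as a block, 0.107 without the filter, 0.116 with the methods' t-test and 0.0599 with the trended robust prior. With slide as a block Pdk1 and Pdk2 differed by -0.15 and -0.19, and both were called without high-Chol array 1 (adjusted p = 0.0327 and 0.00806).

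Of the 8 genes, Igfbp1 varied most from array to array. This gene, whose secreted product binds insulin-like growth factors and whose transcription insulin represses, ranged over 7.83-fold among the 6 arrays. Igfbp1 (chr11:7154447-7154506, mm7) was at 4.67, 6.23 and 6.77 on normal chow versus 7.64, 6.73 and 4.92 under the high-Chol diet. Each diet held a low array, normal chow array 1 and high-Chol array 3. Its SD of 1.09 with normal chow and 1.39 with the high-Chol diet lay at the 99.0 and 99.3 percentiles of all genes, whose median SD was 0.20 and 0.25. The difference between diets was 0.54 with an SE of 0.78 (adjusted p = 0.699, 95% interval from -1.30 to 2.37). Leaving out single arrays moved it from -0.07 (without normal chow array 1 or high-Chol array 1) to 1.29 (without high-Chol array 3), and within slide 1 it was 1.75.

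Angptl4, a PPARα target whose protein inhibits lipoprotein lipase, gave 6.48, 6.95 and 7.22 on normal chow versus 6.47, 6.43 and 5.13 under the high-Chol diet (chr17:31849774-31849833, mm7, minus strand). The diets were apart by 0.0054, which is no more than contact, and high-Chol array 3 was more than 1 unit below all others. The difference was -0.87 with an SE of 0.39 (1.83-fold lower, adjusted p = 0.253), and -0.43 without high-Chol array 3, -0.46 after normexp background correction and -0.41 with slide as a block. The 95% interval ran from -1.80 to 0.06. Lpl itself, the enzyme that the Angptl4 protein inhibits, rose by 1.87 (adjusted p = 0.00895), and stayed called without any single array (adjusted p = 0.00479 to 0.0468), but not with slide as a block (adjusted p = 0.111), without the filter on dim probes (0.0695), with the methods' t-test (0.0984) or after normexp background correction (0.934).

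Fgf21, a hormone that the fasted liver releases under PPARα control, was near background. The brighter of its 2 probes (chr7:41790029-41790088, mm7, minus strand) read -5.85, -4.41 and -5.28 on normal chow versus -5.66, -1.10 and -4.00 under the high-Chol diet, and it was well above background on normal chow array 2 and on high-Chol arrays 2 and 3. The other probe, at chr7:41790404-41791018, gave -5.81, -4.63 and -4.55 against -5.36, -2.62 and -4.16, and was well above background on normal chow arrays 2 and 3 and high-Chol arrays 2 and 3. High-Chol array 2 was the highest array for both probes, by more than 1 unit. The other high-Chol arrays lay within 1 unit of the normal chow range. Since background was not exceeded on every array, the readings are given without a fold or a direction. The genes of the FGF21 coreceptor Klb (difference -0.33, adjusted p = 0.401, and 0.01 after normexp background correction) and of the receptor Fgfr1 (-0.43, adjusted p = 0.194) were not called.

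**Figure D2:**
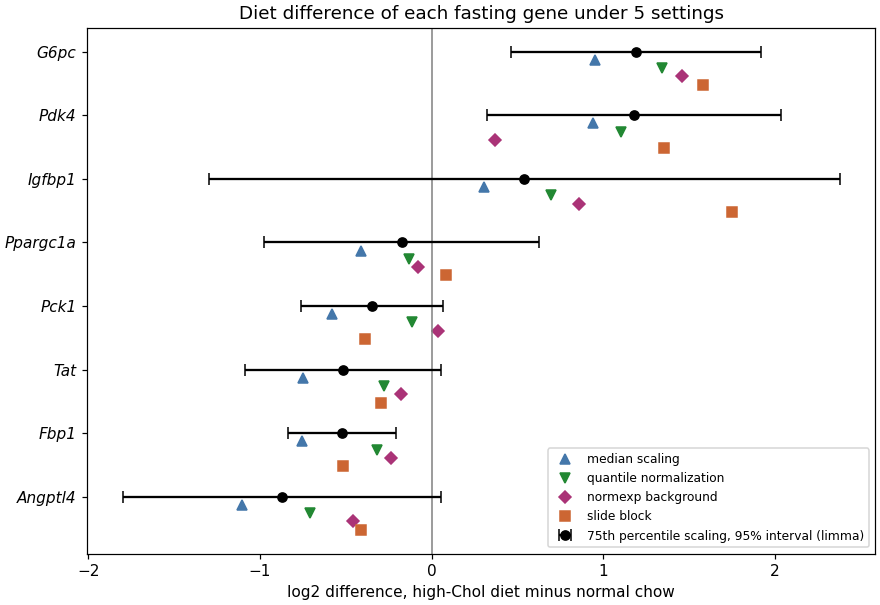
The log2 difference between diets (high-Chol minus normal chow) is on the horizontal axis for each of the 8 genes that were tested, with black points and bars for the 75th percentile scaling and its 95% interval from limma, and coloured symbols for median scaling, quantile normalization, normexp background and slide as a block. G6pc and Pdk4 were above 0 and Fbp1, Tat and Angptl4 below 0 under all 5 settings, whereas Pck1 crossed 0 with normexp and Ppargc1a with the slide block.

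The same arrays were low for many of these genes. Normal chow array 1 was the lowest of its diet for 6 of 8 (Angptl4, Igfbp1, Pck1, Pdk4, Ppargc1a and Tat), against 42.9% of 16440 genes with a value on every array. High-Chol array 3 was the lowest of its diet for 6 of 8 (Angptl4, G6pc, Igfbp1, Pdk4, Ppargc1a and Tat), against 26.4%. Relative to the mean of the diet, the median of the 8 genes was -0.32, 0.30 and 0.11 within normal chow and 0.24, 0.28 and -0.60 within the high-Chol diet, while the median of all genes stayed between -0.04 and 0.03. Lpin1, which encodes the phosphatidate phosphatase lipin-1 and is also induced by fasting, read 3.92, 6.07 and 6.28 on normal chow versus 3.14, 3.15 and 1.34 under the high-Chol diet. Within each diet its lowest array was the same as for most of the 8 genes. The Lpin1 difference was -2.88 (SE 0.74, adjusted p = 0.102), and it was called with median scaling (0.0474), without normal chow array 1 (0.0484) and without high-Chol array 1 (0.0482).

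**Figure D3:**
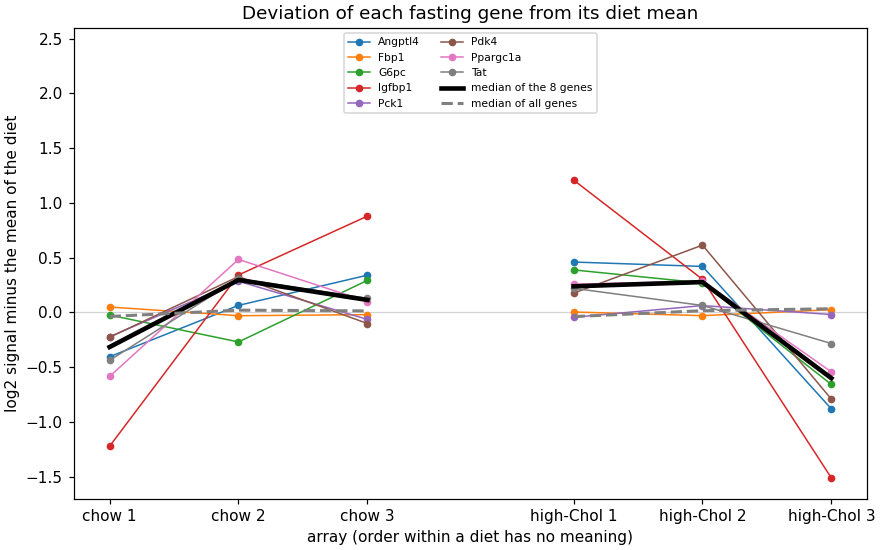
Deviation of each of the 8 genes from the mean of its own diet (vertical axis, log2 units) on each array (horizontal axis), with the median of the 8 genes in black and the median of all genes as a grey dashed line. The black line is at -0.32 on normal chow array 1 and at -0.60 on high-Chol array 3, and lines join the arrays only to follow a gene.

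Clock genes, which mark the time of day, differed between the arrays as well. Dbp, an output gene of the liver clock, was at 6.57, 6.49 and 6.80 on normal chow but at 0.86, 0.86 and 5.64 on the high-Chol diet. Arntl (BMAL1), which runs opposite to Dbp, was at -1.12, -1.71 and -3.67 against 1.19, 1.17 and -1.51. High-Chol arrays 1 and 2 were thus far from normal chow for both genes, and high-Chol array 3 was close to it. Over the 10 Dbp-arm genes tested, the median distance from the normal chow mean was -2.72, -2.15 and -0.57 on high-Chol arrays 1, 2 and 3. All 10 had a lower mean on the high-Chol diet, with a median difference of -1.67 (-0.87 after normexp background correction and -2.72 with slide as a block), and 0 were called by limma, against 8 at an unadjusted p under 0.05. Without high-Chol array 3, Dbp (adjusted p = 0.000869), Tef (0.027) and Usp2 (0.0336) were called, as was Ciart (listed on the array as Gm129), which was well above background on 1 of 3 high-Chol arrays and gives no fold, and with median scaling Nr1d2 (0.0243) and Usp2 (0.0375). Nr1d2 was called without high-Chol array 1 as well (0.0429). The Arntl arm (5 tested, 0 called by limma, 3 at an unadjusted p under 0.05) had a median of 0.80. The smallest unadjusted p in the Dbp arm belonged to Nr1d2 (-0.97), Usp2 (-3.36) and Dbp (-4.17), and in the Arntl arm to Clock (0.80), Nfil3 (1.02) and Arntl (2.45). Among the 8 tested members, high-Chol array 3 was the nearest of its diet to the normal chow mean for 3 (G6pc, Fbp1 and Pdk4) and the farthest for 3 (Ppargc1a, Tat and Angptl4). The part of the time of day or of the last meal in the diet differences was not tested.

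The other genes of the fasting program were taken from lists. Of 23 gluconeogenesis genes, the 3 enzyme genes above among them, 21 were tested and none was called by limma (6 at an unadjusted p under 0.05, 1 higher and 5 lower). Their median was -0.25, with 19 of 21 lower, but 0.07 after normexp background correction. After Fbp1 and G6pc the smallest unadjusted p belonged to Slc37a4, the glucose-6-phosphate transporter that feeds G6pc, at -0.76 (adjusted p = 0.184): it was 6.27, 6.44 and 6.73 on normal chow versus 5.71, 5.24 and 6.20 under the high-Chol diet. The transporter and the phosphatase, which act as one system in the endoplasmic reticulum, thus lay on opposite sides of 0, without overlap between diets in either.

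Of the 11 genes of ketogenesis and fatty acid entry, all were tested and none was called by limma (2 at an unadjusted p under 0.05, both lower). The median was -0.14, but 0.11 after normexp background correction and 0.04 after quantile normalization. Cpt1a, the gate for fatty acids into mitochondria, was at 4.48, 5.10 and 5.01 on normal chow versus 3.88, 3.92 and 4.13 under the high-Chol diet, a difference of -0.89 (adjusted p = 0.0779; called under 4 alternatives, the lowest at 0.0307 with the mean of its probes) with no overlap. Hadha, a subunit of the trifunctional protein of β-oxidation, differed by -0.50 and Acaa2, a thiolase, by -0.30. After normexp background correction Hadha was at -0.28 and Acaa2 at 0.02, and with slide as a block they were at -0.20 and -0.18. Hadha was called without high-Chol array 1 (-0.64, adjusted p = 0.0265).

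Among regulators of fasting, 22 of 24 genes were tested, with 0 called higher and 1 called lower, and a median of -0.25. The gene called was Creb3l3, which encodes the liver factor CREBH, a partner of PPARα in fasting: it was at 6.11, 6.07 and 6.12 on normal chow versus 5.36, 4.82 and 5.28 under the high-Chol diet, and fell by 0.95 (adjusted p = 0.0457). The call was lost when any array other than high-Chol array 1 was left out (adjusted p = 0.107 to 0.178), with slide as a block (0.414), with slide as a random block (0.0984), after quantile normalization (0.0875), without the filter (0.189), with the methods' t-test (0.161) and after normexp background correction. It held with median scaling (0.0488), the filter for all 6 arrays (0.0356), the mean of probes (0.0448) and the trended robust prior (0.0162). The early response gene Nr4a1, which cyclic AMP induces in liver, differed by 1.77 (adjusted p = 0.086), and Trib1 by -0.99 (adjusted p = 0.0932). In the list of other fasting-induced liver genes, 23 of 24 were tested and Creb3l3, which is in both lists, was again the one called. After it the smallest unadjusted p belonged to Cpt1a and Lpin1, and the median of -0.14 turned to 0.17 after normexp background correction and 0.02 after quantile normalization. Genes induced by feeding had lower means as well: 14 of 15 were tested, 0 were called by limma (at an unadjusted p under 0.05, 3 were lower and 0 higher), and 11 of 14 were lower with a median of -0.55, which was -0.25 after normexp background correction and -0.22 with slide as a block. Thrsp, a lipogenic gene induced by carbohydrate, differed by -1.89, Gys2, liver glycogen synthase, by -1.31, and Khk, ketohexokinase, by -0.58. Each became a call under 1 alternative, Thrsp with median scaling (adjusted p = 0.0437), Gys2 without normal chow array 1 (0.0443) and Khk without high-Chol array 1 (0.0357). Khk was at -0.31 with slide as a block and -0.28 after normexp background correction.

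**Figure D4:**
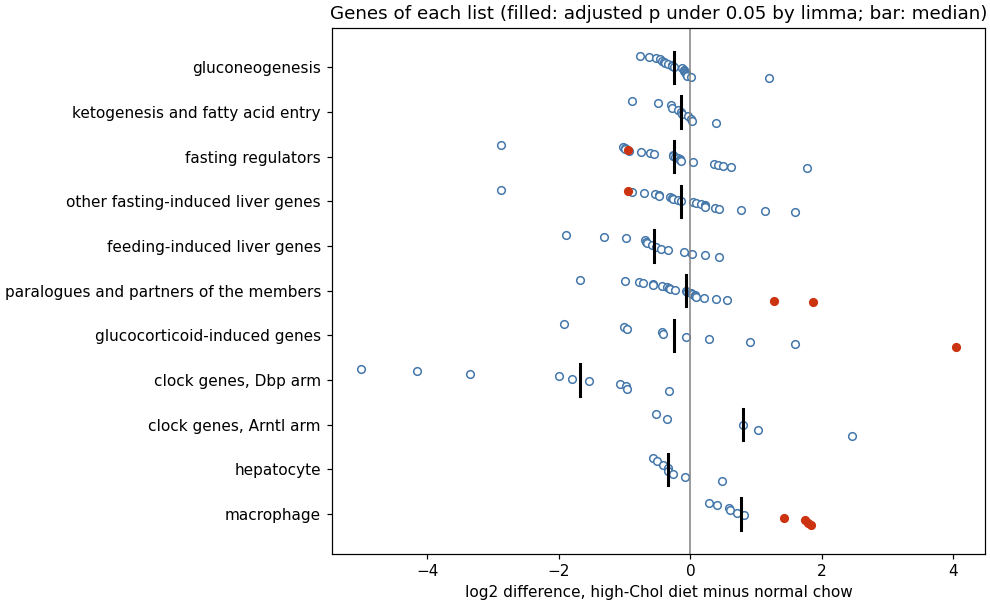
The log2 difference between diets (horizontal axis) of every tested gene in 9 gene lists and in the hepatocyte and macrophage marker lists, with filled red points for an adjusted p under 0.05 by limma and black bars for the median of a list. The gluconeogenesis and feeding-induced lists lie to the left with medians of -0.25 and -0.55, the Dbp arm of the clock lies at -1.67, and filled points are found in the macrophage list and for Lpl, Pdk3, Lcn2 and Creb3l3.

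Of 11 glucocorticoid-induced genes, 10 were tested and 1 was called, Lcn2, which rose by 4.03 (adjusted p = 0.0053, but 0.0831 with slide as a block, 0.088 with the methods' t-test and not called after normexp background correction) and is known as an acute-phase gene as well. The next by unadjusted p lay on both sides of 0: Fkbp5, a chaperone of the glucocorticoid receptor, differed by -1.92 (adjusted p = 0.152) and the kinase gene Sgk1 by 0.91 (adjusted p = 0.160, without a value on high-Chol array 2). Per1 and Cdkn1a likewise differed by -0.97 (adjusted p = 0.173) and 1.60 (adjusted p = 0.198). Cdkn1a was at 0.18 after normexp background correction, and was called without high-Chol array 3 (2.30, adjusted p = 0.0421). Fkbp5 was at 0.93, 1.90 and 1.64 on normal chow versus -0.43, -1.66 and 0.80 under the high-Chol diet, so that high-Chol array 3 was again the nearest to normal chow. The median of this list was -0.24, but 0.02 after normexp background correction, and 0.07 without high-Chol array 3.

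Macrophage markers were called higher on the high-Chol diet, and no hepatocyte marker was called by limma (at an unadjusted p under 0.05, 1 was higher and 2 were lower). Without high-Chol array 1, limma called the hepatocyte markers Apoa1 (-0.81, adjusted p = 0.016) and Ttr (0.63, adjusted p = 0.0365). All 8 hepatocyte markers that were matched were well above background on all 6 arrays. Their summed signal, in multiples of the 75th percentile, was 2710 to 3090 for normal chow and 2150 to 2340 for the high-Chol diet, and 7 of 8 (Tat among them) had a lower mean, with a median of -0.34. The median was -0.58 with median scaling and -0.27 with slide as a block (7 of 8 lower in each), but -0.11 after quantile normalization and -0.06 after normexp background correction (5 of 8 lower in each). All 10 macrophage markers had a higher mean, 4 were called (Cd68, Cd5l, Marco and Lyz2, which the array lists as Lyzs), and the summed signal was 170 to 202 for normal chow and 413 to 550 for the high-Chol diet. With single arrays left out, Cd68 stayed called throughout (adjusted p = 0.00296 to 0.0452), whereas Cd5l, Lyz2 and Marco lost the call without some arrays. With slide as a block none of the 4 was called (adjusted p = 0.0831 for Cd68, 0.12 for Cd5l, 0.106 for Lyz2 and 0.251 for Marco), nor was any of them without the filter, with the methods' t-test or after normexp background correction. Adipoq, which defines adipocytes, Slc34a1 of kidney and Amy2a5 of pancreas were not well above background on any array. Cfd, Fabp4 and Cidec of adipocytes were well above background on all 6 arrays. So were Umod and Aqp2 of kidney and Cela1 and Ctrb1 of pancreas. The summed signal of the 4 adipocyte markers tested was 7.63 to 9.4 for normal chow and 10.9 to 15.3 for the high-Chol diet. Most of that sum came from Fabp4 (difference 0.675), and 1 of the 4, Cidec, was lower (-0.72). The adipocyte median of 0.78 turned to -0.22 after normexp background correction and -0.41 with slide as a block. The summed signal of the 3 kidney markers tested was 1.32 to 1.49 for normal chow and 1.2 to 1.55 for the high-Chol diet. That of the 3 pancreas markers was 0.838 to 1.42 and 1.27 to 1.69. The 1 muscle marker tested, Mylpf, differed by -0.06. The part of cell makeup in the lower signals of Fbp1, Pck1 and Tat was not tested.

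Some genes followed the members across the arrays. With each gene centred on its mean over the 6 arrays, the profile nearest to that of G6pc among 14051 genes was Serpinb1a, at a root mean square distance of 0.11, followed by Serpinb1c at 0.16; these are paralogues whose probes may share transcripts. For Pdk4 the nearest were Pnrc1, a nuclear receptor coactivator, at 0.17 and Serpina3f at 0.20. Fbp1 was nearest to 5730403B10Rik (0.016) and 4933433K01Rik (0.044), Pck1 to Mrps35, a mitochondrial ribosomal protein gene (0.033), and Angptl4 to Fbxl20 (0.15). These distances are a description over 6 arrays that share slides and the diet difference.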

How the data were processed

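Liver RNA from apoE-KO mice on normal chow or the high-Chol diet was hybridized by the authors to one-colour Agilent Whole Mouse Genome arrays, 3 per diet. The authors deposited the spot intensity values of each array, background-subtracted by Agilent Feature Extraction (version 9.5 on slide 1 and 9.1 on slide 2 per the file headers) and not normalized between arrays. A deposited table of log2 values holds 23458 probes with 1 value for each diet; how the authors scaled it is not given in the sources used here.

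Here the processed signal was put on a log2 scale and the 75th percentile of the array subtracted, without control spots (1639 per array) and outlier spots (75 to 196). A gene needed a probe that rose well above background throughout at least 1 diet, and its brightest such probe stood for it. Differences between diets came from lmFit and eBayes of limma 3.58.1 (R 4.3.3), with Benjamini-Hochberg adjustment. On simulated data with 16440 genes, 38 of 106 2-fold and 80 of 94 4-fold changes were called, with 6 false calls. The simulated arrays had independent noise and no slide effect, so these counts say nothing about slide. The number of arrays limits the precision. The labels do not say that arrays are separate animals, so p-values measure the spread between these arrays. Probe positions come from the array annotation (mm7); 22951 of 41174 probes matched a RefSeq table used for names, and promoters (8 of 9 genes) are from GRCm38.p6, another build.

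The members, the 9 gene lists and the 6 marker lists were chosen with earlier results of these data known. Named genes are the members, the 3 of each gene list with the smallest unadjusted p, called genes of lists with at most 3 calls, Lpin1, and the nearest profiles of members without overlap. Others, such as Per1, Cdkn1a, Pdk1, Pdk2, Hpd, Fah, Klb, Fgfr1 and the macrophage markers, were named after their values were seen. Alternatives were a normexp background (offset 50), median scaling (floor of 5), quantile normalization, other filters, the mean of the probes of a gene, every probe by itself, slide as a fixed or random block, each array left out, a trended robust prior, the methods' t-test and the authors' values.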

Additional observations from a re-analysis of the deposited data

How the results depend on the processing

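None of the 8 tested members was called under the scalings, filters, slide blocks and the methods' t-test; 1 (Fbp1) was called with the trended robust prior, and leaving out single arrays gave 0 to 1 (Fbp1 without high-Chol array 1, G6pc without high-Chol array 3). Of 137 tested values of the 8 members under the alternatives, 128 kept direction and side of the threshold, 3 became calls and 6 turned sign. Those that turned were Ppargc1a with the slide block (0.082) and without single arrays (-0.468 to 0.096), Igfbp1 without single arrays (-0.073 to 1.29), and Pck1 with normexp (0.039). Fgf21, which was dim and did not pass the filter, has differences that are readings near background and no fold: they turned sign under 2 of 13 alternatives, to -0.62 with normexp and -0.48 with the slide block. The median over all genes was -0.26 with median scaling and -0.11 with normexp, against -0.02; median scaling lowered most listed genes alike, less so those without a value on some array or near the floor, while normexp moved G6pc up (to 1.46) and Pdk4 down (to 0.37). Medians of gene lists that turned sign were gluconeogenesis with normexp (0.071), ketogenesis with normexp (0.11) and quantile (0.043), other fasting-induced genes with normexp (0.17) and quantile (0.023), and glucocorticoid-induced genes with normexp (0.020) and without single arrays (-0.43 to 0.071). Medians of marker lists turned sign as well. The adipocyte median of 0.78 turned to -0.22 with normexp and -0.41 with the slide block. The pancreas median of 0.615 turned to -0.59 with normexp, and the kidney median of -0.084 to 0.035 with the slide block. Calls over all genes, 488, came to 0 with normexp (306 at an unadjusted p under 0.05), 26 without the filter, 11 with the slide block, where 1 high-Chol array carries the difference, 263 with slide as a random block, 5 with the methods' t-test after Benjamini-Hochberg (2764 at its unadjusted threshold), and 42 to 3077 without single arrays (42 without normal chow array 2, 105 without high-Chol array 2, 167 without high-Chol array 3, 173 without normal chow array 3, 262 without normal chow array 1 and 3077 without high-Chol array 1). The causes were not tested. No paired analysis was possible because the labels list the replicates of each diet together and tie no array to a number. Dim signal limits Fgf21 and Pdk3.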

Other observations

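Of 26 listed paralogues and partners of the members 23 were tested, 2 were called higher (Lpl and Pdk3, of which Pdk3 passed the filter only through the high-Chol diet and turned sign with normexp background correction), 0 were called lower, and the median difference was -0.07. Lpl was at 1.44, 0.85 and 1.40 on normal chow versus 3.00, 3.28 and 3.03 under the high-Chol diet, and the rise of 1.87 was 1.76 with the slide block, where it was not called (adjusted p = 0.111). Lpl is also a macrophage transcript, and the macrophage markers were higher on the same arrays; their part in the Lpl rise was not tested.

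Ppargc1b, the paralogue of Ppargc1a, read 1.85, 1.93 and 1.14 on normal chow versus 0.66, 0.39 and 0.87 under the high-Chol diet. The means of 1.64 and 0.64 (adjusted p = 0.1) came from values that did not overlap, unlike those of Ppargc1a, and the difference between the paralogues was not tested. Igfbp4 differed by -0.78 (4.23, 4.29 and 4.40 against 3.73, 3.14 and 3.72, adjusted p = 0.105), by -0.46 after normexp background correction and by -0.87 without high-Chol array 1, where it was called (adjusted p = 0.0364). Igfbp2 was at 6.17, 6.40 and 6.45 against 6.77, 6.27 and 6.18. Pck2 and G6pc3, the forms of Pck1 and G6pc that fasting does not induce, differed by -0.07 and 0.02.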
